A study of Mus musculus with 2 samples.

Results

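The Hox genes are the homeobox transcription factor genes of the HoxA, HoxB, HoxC and HoxD clusters. They were taken as every row of the count table whose Ensembl identifier maps to a symbol made of Hox, a cluster letter and a paralogue number. GENCODE vM21 annotates 39 such protein-coding genes, of which 26 were listed among the 16190 genes of the table. The RNA was that of satellite cells, as the labels call them, from the tibialis anterior muscle of C57BL/6 mice. Satellite cells are the stem cells of skeletal muscle and sit on the surface of its fibres. 1 library was labelled Cipc-flox/flox (the control, with floxed Cipc alleles, titled Cipc+/+) and 1 was labelled Cipc-scko (titled Cipc-/-; the series title speaks of a deletion specific to satellite cells). They are called Cipc flox/flox and Cipc scko here. Cipc encodes CLOCK-interacting pacemaker, a repressor of the circadian factors CLOCK and BMAL1. The series title also names mdx mice, which lack dystrophin, but the labels of both libraries name no mdx allele. The Cre driver, the number, age and sex of the mice and any pooling or culture of the cells were not found in the labels. Each group had 1 library, so the differences below are between 2 libraries and were not replicated. Intervals reflect the counting of reads alone, and reads that carry no molecular identifier can be copies of one molecule.

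Hox proteins give cells their position along the body axis and the limb. Within a cluster all genes are transcribed in the same direction, and their order follows their domains: low paralogue numbers, at the 3′ end, mark anterior levels, and high numbers, at the 5′ end, mark posterior levels and distal limb. Paralogues are the corresponding genes of different clusters, such as Hoxa13 and Hoxc13. Groups 9 to 13 pattern limb segments, with group 11 known for the lower leg, where the tibialis anterior lies, and group 13 for the foot. Adult muscle stem cells are known to keep a Hox pattern of the muscle they come from.

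On build GRCm38 the HoxA genes span chromosome 6 from 52155590 to 52260880, HoxB chromosome 11 from 96194316 to 96368256, HoxC chromosome 15 from 102921103 to 103036852 and HoxD chromosome 2 from 74668310 to 74765142. All 11 HoxA and all 9 HoxC genes were listed, but 3 of 10 HoxB and 3 of 9 HoxD genes. The 13 genes that were not listed were Hoxb1, Hoxb2, Hoxb5, Hoxb6, Hoxb7, Hoxb8, Hoxb9, Hoxd1, Hoxd3, Hoxd4, Hoxd11, Hoxd12 and Hoxd13. The table held no gene at 0 counts in both libraries, so nothing further is said of them here.

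The libraries held 16830168 counts (Cipc scko) and 16145870 counts (Cipc flox/flox). Cipc itself had 594 counts in the Cipc scko library against 1907 in Cipc flox/flox. Its log2 ratio, Cipc scko divided by Cipc flox/flox as in all ratios below, was -1.61 (95% counting interval -1.74 to -1.47). The libraries also differed in sex-linked genes, with 4 and 3898 counts of Xist and 511 and 0 of the Y-linked Ddx3y, and in Cdkn2a with 688 and 0, so these differences cannot be told apart from genotype. Of 12 satellite and myogenic markers 11 were listed, 5 were higher in Cipc scko and 0 lower, and Calcr was not listed. By the same calls and filter, defined below, 21.2% of all genes were higher and 15.9% lower. Pax7, which marks satellite cells, stood at 62.2 and 2.54 CPM (counts scaled to a common library size), and Myf5 at 66.2 and 61.6 CPM. Besides Pax7, the higher markers were Myog with 44286 and 53 counts, Fgfr4 with 4780 and 0, Myod1 with 19132 and 1916 and Des with 71452 and 33458. The other listed myogenic markers were not called. The part of this difference in the Hox values was not tested. Summed levels of other cell types' markers were 3052 and 2245 CPM for fibroblasts and fibro-adipogenic cells (10 of 12 listed), 12856 and 627 CPM for smooth muscle and pericytes (5 of 7), 5.73 and 46.7 CPM for macrophages and leukocytes (4 of 8), 8.22 and 8.45 CPM for endothelium (5 of 8), 1.56 and 20.8 CPM for Schwann cells and glia (4 of 6), 29.1 and 75.7 CPM for tenocytes (2 of 4), and 0.810 and 23.3 CPM for adipocytes (2 of 4). Members of a list went opposite ways, so these sums hide differences. In the endothelial list Flt1 had 0 and 128 counts and Kdr 112 and 2. Acta2 made up most of the smooth muscle sum at 12432 and 513 CPM, while Cspg4 had 7 and 491 counts. Of the members past the filter, 3 of 7 fibroblast, 1 of 2 endothelial, 1 of 3 leukocyte, 4 of 5 smooth muscle, 1 of 2 tenocyte, 0 of 2 Schwann and 0 of 1 adipocyte markers were higher, and 3, 1, 2, 1, 1, 2 and 1 were lower. The shares over all genes were 21.2% and 15.9%, as above, and most of these lists hold few genes. The defining markers Ptprc, Sox10, Tnmd, Adipoq, Lum and Myh11 were not listed. Dcn, a fibroblast marker, had 1 and 142 counts, and the neural crest and stromal receptor Ngfr 2 and 310. The part of cell composition in the Hox values was not tested, and in bulk RNA fewer cells of a type and less RNA per cell cannot be told apart.

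The coding sequences bear on whether reads of one Hox gene could be counted for another. For 2 paralogue groups whose members differed in opposite ways or in both clusters, the 60-base coding stretch most alike between the listed paralogues is shown, read from the GENCODE vM21 transcripts (GRCm38), 5′ to 3′, with bases that differ from the first gene of each set in capitals. In group 13 Hoxc13 differed from Hoxa13 at 11 of the 60 bases and Hoxb13 at 14.
Hoxa13: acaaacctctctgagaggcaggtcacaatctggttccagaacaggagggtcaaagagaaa
Hoxc13: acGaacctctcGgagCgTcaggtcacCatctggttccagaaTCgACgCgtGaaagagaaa
Hoxb13: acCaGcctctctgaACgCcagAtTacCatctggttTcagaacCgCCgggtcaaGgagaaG
In group 8 Hoxd8 differed from Hoxc8 at 10 bases.
Hoxc8: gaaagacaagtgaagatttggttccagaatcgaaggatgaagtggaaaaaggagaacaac
Hoxd8: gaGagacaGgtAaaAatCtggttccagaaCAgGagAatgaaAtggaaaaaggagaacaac
The longest identical coding run between listed paralogues of a group was 33 bases, between Hoxa3 and Hoxb3, so no stretch of 50 coding bases was shared between listed paralogues. Elsewhere in the transcripts, Hoxa6 and Hoxb4 shared 3 windows of 50 bases and Hoxc9 shared 17 with Hoxb6 or Hoxb9. Of Hoxb4 windows 0.358%, of Hoxc8 windows 0.770% and of Hoxc9 windows 2.07% matched genes that neither overlap the member nor are Hox genes. Whether those genes lie within a cluster was not examined. Larger shares matched the transcripts of genes that overlap a member: 33.7% of those of Hoxa11 with its antisense partner Hoxa11os, 27.0% of Hoxa7 with Hoxaas3, 26.3% of Hoxa3 with 4 genes and 68.7% of Hoxb3 with Hoxb3os. No label says whether counting used strand, so reads of these overlapping pairs may not be separated.

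Of the 26 listed genes, 23 passed a filter, namely 1 CPM or more in either library with a total of at least 20 counts, and Hoxb3, Hoxb13 and Hoxd10 did not. A gene was called higher or lower in Cipc scko when its ratio was at least 2-fold and its interval excluded equality. 10 of 23 were higher (43.5%), against 21.2% of all 12874 genes past the filter, and 4 of 23 were lower (17.4%), against 15.9%. The share of lower genes was thus near that of the whole table. The median log2 ratio of the 23 was 0.71, also with genes at 0 counts taken at their bound, beside 0.01 for all genes. The called genes lay in different parts of the clusters, as the plot of levels by gene and the following sections show.

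**Figure D1:**
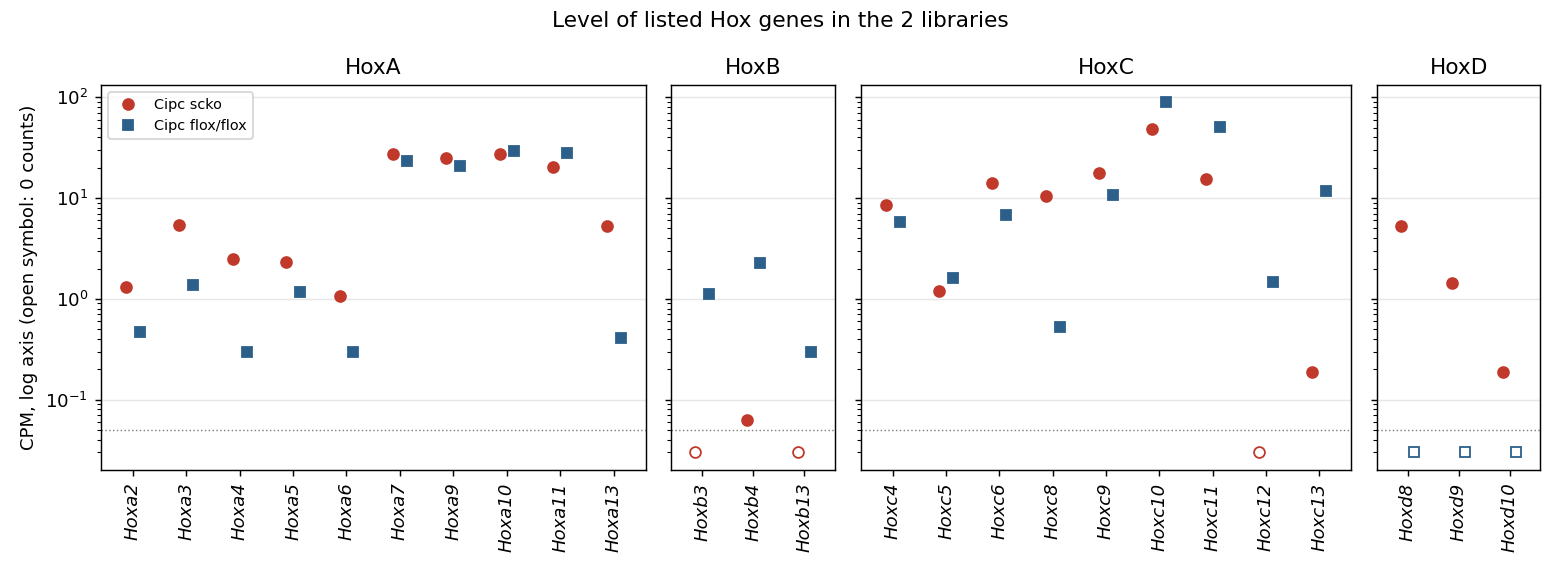
Level of 25 of the 26 listed Hox genes in CPM on a log axis, in Cipc scko (circles) and Cipc flox/flox (squares), ordered by cluster and paralogue number, with genes at 0 counts drawn as open symbols under the dotted line. Hoxa7 to Hoxa11 lay close together in both libraries, while HoxB genes were seen almost only in Cipc flox/flox and HoxD genes only in Cipc scko.

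The HoxA genes of low number were higher in Cipc scko, and those from Hoxa7 to Hoxa11 were not called. Hoxa2, known for the second branchial arch, had 21 counts in the Cipc scko library against 8 in Cipc flox/flox (log2 1.41, 0.24 to 2.85). Hoxa3, needed for thymus and parathyroid, had 87 and 23 (1.97, 1.32 to 2.73). Both were called higher, Hoxa2 with an interval that reached close to equality.

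Hoxa4 followed them with 40 and 5 counts (2.95, 1.74 to 4.78), and Hoxa6 with 17 and 5 (1.74, 0.34 to 3.64). Hoxa5, a regulator of lung development that lies between them, had 37 and 20 counts (0.95, 0.14 to 1.83) and did not reach 2-fold. The depth behind Hoxa2, Hoxa4, Hoxa5 and Hoxa6 was low, at no more than 2.49 CPM in either library.

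From Hoxa7 to Hoxa11, HoxA genes were counted at least 328 times in each library and differed little. Hoxa7 had 440 and 395 counts, or 27.4 and 23.3 CPM (0.23, 0.03 to 0.43). Hoxa9, best known from blood stem cells and also described in aged satellite cells, stood at 24.7 and 20.7 CPM (0.26, 0.05 to 0.47). Hoxa10, described in limb muscle stem cells, stood at 27.1 and 29.5 CPM (-0.12, -0.31 to 0.07). Its interval excluded a 2-fold difference in either direction, as did those of Hoxa7, Hoxa9 and Hoxa11.

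Hoxa11, of the lower-leg group, had 328 and 478 counts, or 20.4 and 28.2 CPM (-0.47, -0.67 to -0.26). The antisense row Hoxa11os, which covers 35.0% of the exon bases of Hoxa11, had 276 and 426 counts (-0.55, -0.77 to -0.33). Both rows thus differed by about the same ratio, and neither reached 2-fold.

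Hoxa13, the last gene of the cluster and known for the digits, broke the pattern of its neighbours. It had 85 counts in the Cipc scko library against 7 in Cipc flox/flox, or 5.29 and 0.414 CPM (3.58, 2.57 to 5.04). No exon of it overlaps another annotated gene. In all, 6 of 11 HoxA genes were higher (54.5%, against 21.2% of all genes past the filter). In HoxA 0 were lower, against 15.9% of all genes, and the median log2 ratio was 1.41. The summed counts of the cluster, which Hoxa7 to Hoxa11 dominate, differed by only 0.23 (0.13 to 0.32). Among members of at least 5 CPM in a library the median was 0.26.

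**Figure D2:**
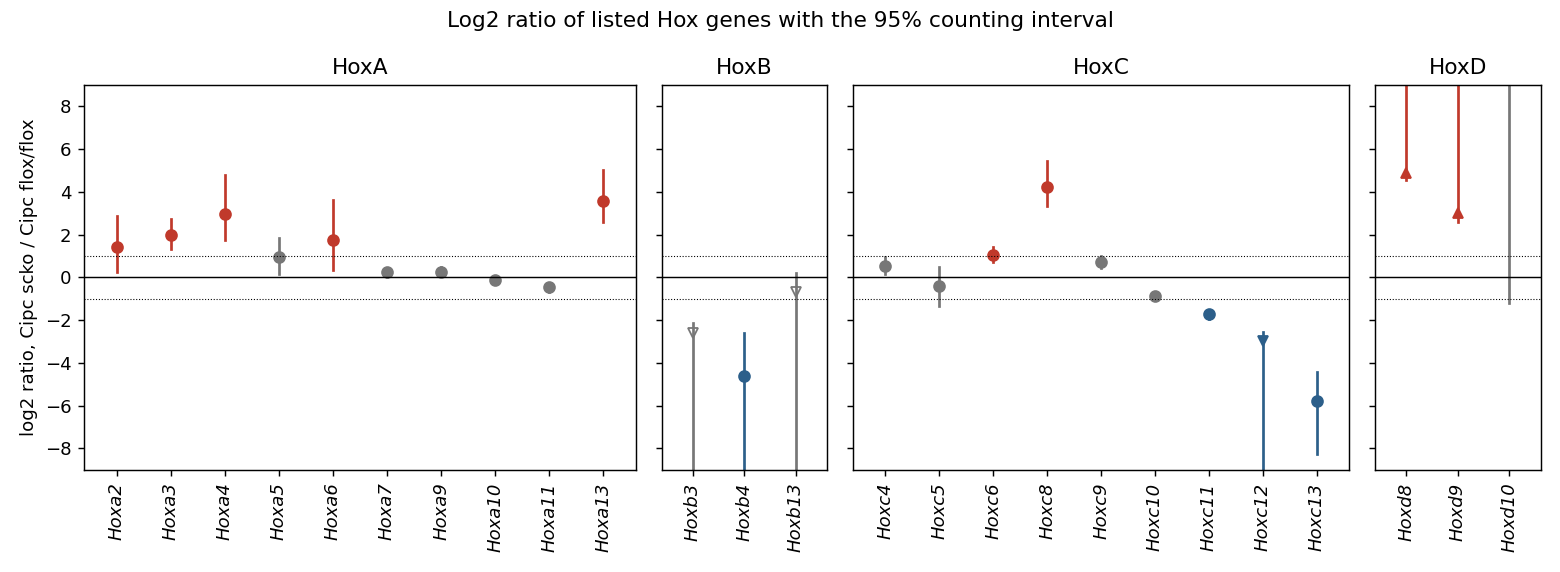
Log2 ratio (Cipc scko divided by Cipc flox/flox) for 25 of the 26 listed Hox genes (points) with its 95% counting interval (lines, cut at the axis limits), dotted lines at a 2-fold difference, red for higher, blue for lower and grey for neither. Triangles mark the bound of genes at 0 counts in a library, open symbols genes that did not pass the filter, and Hoxd10 has an interval only. Ratios in HoxC went from above 0 at Hoxc8 to below 0 at Hoxc13.

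HoxC was split by paralogue number. Genes at its 5′ end were lower in Cipc scko, and genes in its middle were higher or not called. Hoxc13 (ENSMUSG00000001655, chromosome 15, 102921103 to 102928814), known for hair and nails, had 3 counts in the Cipc scko library against 199 in Cipc flox/flox, or 0.187 and 11.8 CPM (-5.76, -8.27 to -4.41). Its neighbour Hoxc12 had 0 and 25 counts, which is at least 7.90-fold lower against a floor of 3 counts in the Cipc scko library. Hoxc11, a gene of lumbar levels and hindlimb, had 247 and 860 counts, or 15.4 and 50.8 CPM (-1.72, -1.93 to -1.52). All 3 were called lower.

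Hoxc10 was the Hox gene with the highest level per length in both libraries, at 24.2 and 48.9 FPKM (fragments scaled by transcript length and library size, as the authors deposited them). Its 779 and 1506 counts, or 48.5 and 89.0 CPM, gave a log2 ratio of -0.87 (-1.001 to -0.749), short of 2-fold. When libraries were scaled by total counts it was called lower (-1.01), a scaling that moved the median of all genes by -0.14.

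Across Hoxc10 the sign of the ratio turned. Hoxc9, known from thoracic motor neurons, had 283 and 182 counts (0.71, 0.44 to 0.99), which is short of 2-fold. Hoxc8 (ENSMUSG00000001657, chromosome 15, 102990607 to 102994111), of thoracic levels, had 167 and 9 counts, or 10.4 and 0.532 CPM (4.21, 3.33 to 5.44), the highest ratio in HoxC. Hoxc6 had 228 and 115 counts (1.06, 0.73 to 1.40) and was called higher, but not when libraries were scaled by total counts (0.92).

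The 2 genes at the 3′ end of HoxC were not called. Hoxc5 had 19 and 27 counts (-0.42, -1.36 to 0.47), and its exons share 5.37% of their bases with Hoxc10. Hoxc4 had 137 and 99 counts (0.54, 0.16 to 0.93). Of 9 HoxC genes, 2 were higher (22.2%, against 21.2% of all genes past the filter), 3 lower (33.3%, against 15.9%) and 4 neither. The share of higher genes was thus near that of all genes. The share of lower genes was near the 37.5% of chromosome 15. Summed over groups 4 to 8, HoxC counts were 551 and 250 (1.21, 0.998 to 1.44), and over groups 9 to 13 they were 1312 and 2772 (-1.003, -1.10 to -0.91). These intervals do not overlap.

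A median hides this split. The median of the 9 HoxC genes was -0.42, and it was 0.54 both among members of at least 5 CPM and without the members whose exons overlap another gene. Chromosome 15 as a whole also had low ratios. Of its 520 genes past the filter 37.5% were lower against 15.9% over all chromosomes, and 12.5% were higher against 21.2%. The median of the 520 was -0.68, and Hoxc10, at -0.87, lay near it. Relative to that median, HoxC stood at 0.26. The medians of chromosomes 6, 11 and 2, which hold the other clusters, were -0.05, -0.12 and -0.10.

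**Figure D3:**
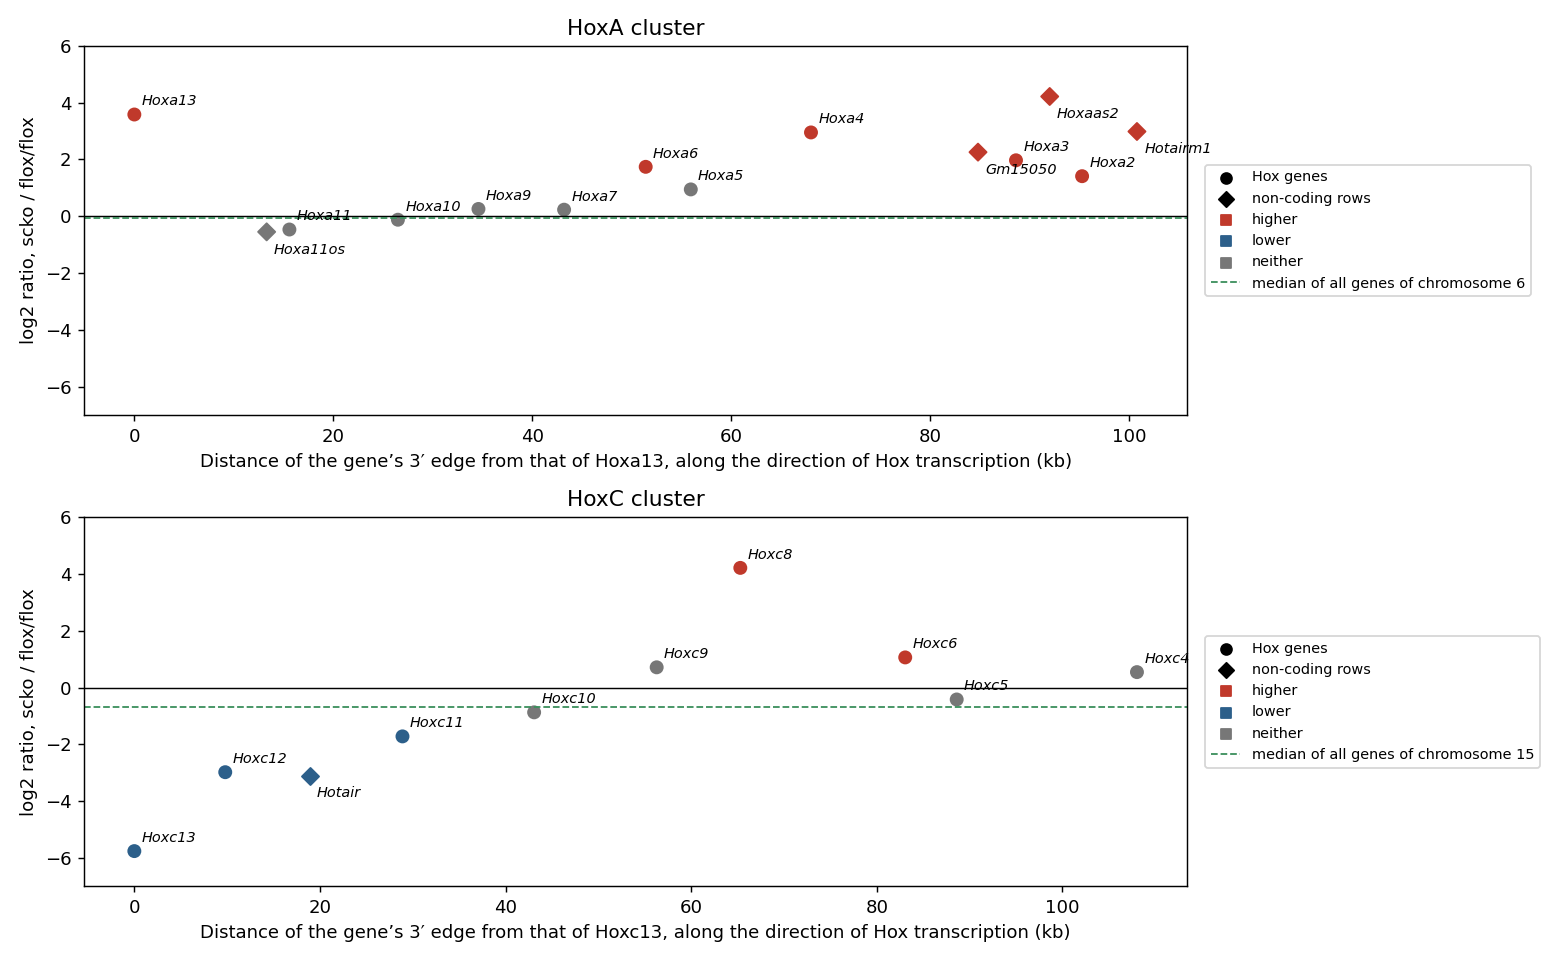
Log2 ratio of Hox genes (circles) and non-coding rows (diamonds) past the filter against the distance in kb of the gene's 3′ edge from that of Hoxa13 (top) or Hoxc13 (bottom), with genes at 0 counts in a library drawn at their bound and a dashed line at the median of all genes of the chromosome. The non-coding rows lie on the opposite strand and were placed by the edge on the same side, which is their 5′ edge. Ratios of HoxA genes were above 2-fold from Hoxa2 to Hoxa4, at Hoxa6 and at Hoxa13. Those of HoxC genes were below 0 from Hoxc10 to Hoxc13 and at Hoxc5.

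The HoxD genes were counted only in Cipc scko. Hoxd8 (ENSMUSG00000027102, chromosome 2, 74704615 to 74707933), of trunk levels, had 84 counts in the Cipc scko library against 0 in Cipc flox/flox, at least 29.5-fold higher against a floor of 3 counts, or 0.177 CPM, in Cipc flox/flox. Hoxd9, which acts in the upper limb segment with its paralogues, had 23 and 0 counts, at least 8.08-fold higher. The median of these 2 genes at their bound was a log2 ratio of 3.95. Hoxd10 had 3 and 0 counts, which is too few for a fold. So 2 of the 23 Hox genes past the filter were at 0 in Cipc flox/flox, where 3.46% of all genes past the filter were, and 1, Hoxc12, was at 0 in Cipc scko, where 1.61% were.

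The HoxB genes went the other way. Hoxb4 (ENSMUSG00000038692, chromosome 11, 96318267 to 96321638), known from blood stem cells, had 1 count in the Cipc scko library against 38 in Cipc flox/flox, or 0.0623 and 2.25 CPM (-4.62, -10.51 to -2.61). Hoxb3 had 0 and 19 counts, at least 6.01-fold lower, but did not pass the filter, and 52.9% of its exon bases lie opposite Hoxb3os. Hoxb13 had 0 and 5 counts, at least 1.58-fold lower, with an interval that included equality. Summed over the cluster the counts were 1 and 62.

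For the genes of these clusters that differed most and have an entry, promoter sequences from RefSeq (GRCm38.p6) are shown, from 250 bases before to 50 after the gene start, with CG dinucleotides in capitals. Hoxd8 and Hoxd9 are set beside Hoxb4, which differed in the opposite direction, and Hoxa13, which differed from its neighbours. They lie at chr2:74704365-74704664 (plus strand), chr2:74697513-74697812 (plus strand), chr11:96318017-96318316 (plus strand) and chr6:52260831-52261130 (minus strand).
Hoxd8: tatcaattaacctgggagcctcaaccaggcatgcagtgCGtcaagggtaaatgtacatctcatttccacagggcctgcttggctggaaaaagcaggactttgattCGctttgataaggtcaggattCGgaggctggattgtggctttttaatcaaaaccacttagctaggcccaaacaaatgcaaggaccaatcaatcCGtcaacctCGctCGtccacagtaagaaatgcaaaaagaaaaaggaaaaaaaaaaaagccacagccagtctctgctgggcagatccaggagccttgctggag
Hoxd9: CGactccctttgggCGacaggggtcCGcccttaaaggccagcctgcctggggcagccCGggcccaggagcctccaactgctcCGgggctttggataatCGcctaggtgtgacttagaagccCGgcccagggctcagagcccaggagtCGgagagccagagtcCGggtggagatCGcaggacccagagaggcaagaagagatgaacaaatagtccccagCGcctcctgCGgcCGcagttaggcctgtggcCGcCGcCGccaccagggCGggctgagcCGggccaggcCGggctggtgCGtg
Hoxb4: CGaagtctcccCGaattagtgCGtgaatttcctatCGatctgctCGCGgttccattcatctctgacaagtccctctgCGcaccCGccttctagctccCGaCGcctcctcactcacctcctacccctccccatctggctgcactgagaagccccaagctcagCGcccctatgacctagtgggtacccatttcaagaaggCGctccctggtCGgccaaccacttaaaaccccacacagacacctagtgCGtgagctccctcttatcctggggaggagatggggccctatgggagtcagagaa
Hoxa13: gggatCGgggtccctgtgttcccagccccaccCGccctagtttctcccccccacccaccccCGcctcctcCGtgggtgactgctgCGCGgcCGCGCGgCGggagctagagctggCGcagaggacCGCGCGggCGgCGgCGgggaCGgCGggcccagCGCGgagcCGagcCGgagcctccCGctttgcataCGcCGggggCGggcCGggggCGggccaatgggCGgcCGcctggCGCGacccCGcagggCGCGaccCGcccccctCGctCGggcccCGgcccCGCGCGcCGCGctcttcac
CG dinucleotides numbered 6, 20, 14 and 45 in these windows, and the median was 15 over the 15 promoters of 14 listed Hox genes and 7 over all 32851 promoters. Since Cipc acts on CLOCK and BMAL1 and the cells are myogenic, the E-boxes CACGTG (bound by CLOCK and BMAL1) and CAGCTG (bound by myogenic factors) and the motif TGATNNAT (bound by PBX and HOX proteins) were searched on both strands. None of the 3 was in the 4 windows above. Over the listed Hox promoters CACGTG occurred in 1 of 15 (Hoxd10) against 7.15% of all promoters, CAGCTG in 4 (Hoxa3, Hoxa5, Hoxa6 and Hoxa11) against 16.3%, and TGATNNAT in 1 (Hoxa2) against 8.85%. For 12 of the 26 listed genes the table used holds no promoter. Over its 24 promoters of 22 Hox genes, listed in the count table or not, CACGTG occurred in 5 (20.8%), CAGCTG in 4 (16.7%) and TGATNNAT in 4 (16.7%). Both E-boxes are forms of CANNTG and neither holds the other. A match is a description of the letters and says nothing of binding.

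Paralogues of one group differed in the same direction in some groups and not in others. Only genes past the filter are compared here, which leaves out Hoxb3 (0 and 19 counts), Hoxb13 (0 and 5) and Hoxd10 (3 and 0). Hoxb3 went the opposite way to Hoxa3. In group 13 Hoxa13 was higher and Hoxc13 lower. In group 4 Hoxa4 was higher, Hoxb4 lower and Hoxc4 not called. In group 5 Hoxa5 (0.95) and Hoxc5 (-0.42) had opposite signs and were not called. Group 6 was higher in both clusters where it was listed, Hoxa6 (1.74) and Hoxc6 (1.06). Group 8 was higher in both clusters where it was listed and past the filter, Hoxc8 and Hoxd8. In group 9 Hoxd9 was higher, and Hoxa9 (0.26) and Hoxc9 (0.71) were above 0 but not called. In group 10 Hoxa10 (-0.12) and Hoxc10 (-0.87) were below 0 and not called. In group 11, Hoxa11 (-0.47) and Hoxc11 (-1.72) had the same sign and intervals that do not overlap.

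Levels per length show which Hox genes made up most of the signal. Summed FPKM of the listed Hox genes was 72.3 in Cipc scko against 112 in Cipc flox/flox. HoxC held 64.1% of it in Cipc scko against 80.3% in Cipc flox/flox, HoxA 33.4% and 18.6%, HoxD 2.41% and 0, and HoxB 0.0320% and 1.12%. Groups 9 to 13 held 69.5% and 89.2%, groups 4 to 8 held 26.0% and 9.82%, and groups 1 to 3 held 4.54% and 0.955%. Hox signal in both libraries was thus mostly that of posterior genes of HoxC and HoxA, and the anterior and middle groups made up a larger share in Cipc scko. In counts, groups 9 to 13 summed to 2583 and 4111 (-0.59, -0.67 to -0.52) and groups 4 to 8 to 1170 and 713 (0.79, 0.66 to 0.93). Next to Hoxc10, the highest FPKM values in Cipc flox/flox were those of Hoxc11 (26.4), Hoxa11 (6.75) and Hoxc13 (5.01), and in Cipc scko those of Hoxc11 (7.26), Hoxc9 (5.59) and Hoxa7 (4.71).

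**Figure D4:**
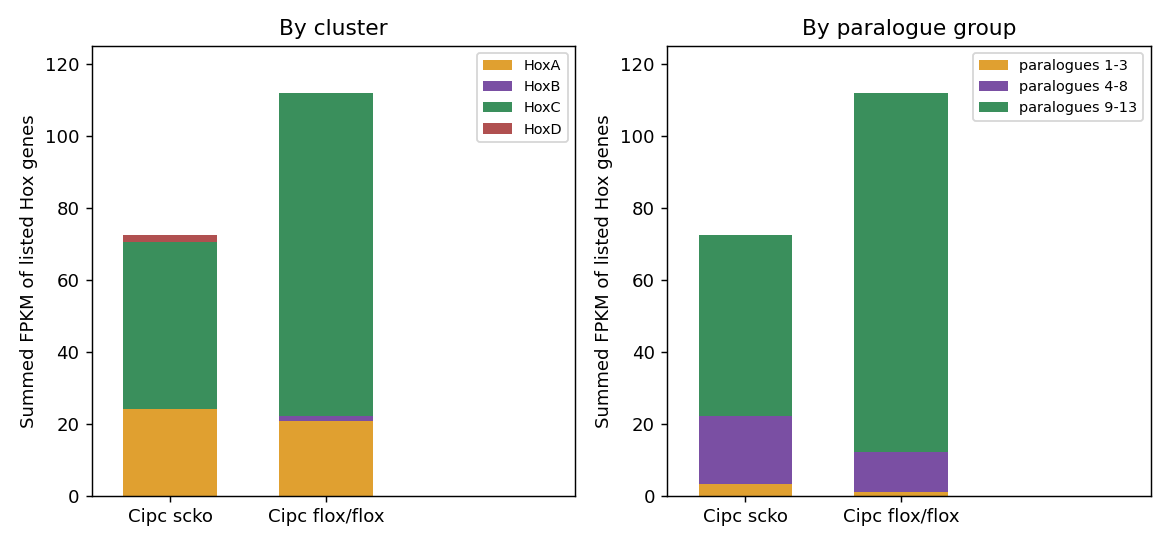
Summed FPKM of the listed Hox genes in each library (bars from 0), divided by cluster (left) and by paralogue group (right). HoxC and groups 9 to 13 made up most of both bars, and the sum was 72.3 in Cipc scko against 112 in Cipc flox/flox.

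Within the cluster spans lay 9 other rows, 8 non-coding or unassigned and 1, Gm28308, annotated as protein-coding. Of these 5 passed the filter, all non-coding, and 3 were higher and 1 lower, each like the Hox genes beside it. All genes past the filter were higher in 21.2% and lower in 15.9% of cases. Hotairm1, an antisense RNA, had 71 and 9 counts (2.99, 2.05 to 4.24), Hoxaas2 had 53 and 0 (at least 18.6-fold higher), and Gm15050 had 20 and 4 (2.26, 0.82 to 4.41). All 3 lie in the 3′ part of HoxA, where Hoxa2, Hoxa3 and Hoxa4 were higher. Hotair, the long non-coding RNA between Hoxc11 and Hoxc12 that is known for its link to Polycomb, had 3 and 31 counts (-3.10, -5.65 to -1.61), lower like the genes on both sides. The 4 rows under the filter were Gm28308 (2 and 2 counts), Hoxaas3 (2 and 0), 9530018H14Rik (5 and 0) and Hoxd3os1 (4 and 0).

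Genes that flank the clusters set these differences in context. Of the 24 nearest listed protein-coding genes, 3 on each side of each cluster, 22 passed the filter, 2 were higher and 3 lower. The corresponding shares among all 12874 filtered genes were 21.2% (higher) and 15.9% (lower). Distances from the cluster edge ran from 60.7 kb (Mtx2) to 1026 kb (Creb5). Next to HoxD, where Cipc flox/flox had 0 counts, Lnpk had 202 and 249 counts (-0.23, -0.50 to 0.05) and Mtx2 had 808 and 769 (0.15, 0.00 to 0.29). Farther from HoxD, Hnrnpa3 was lower at 33 and 278 counts (-2.98, -3.57 to -2.47), and the other flanking genes there were not called. Around HoxA, Snx10 was higher at 419 and 111 counts (1.99, 1.69 to 2.31) and Creb5 lower at 10 and 352 (-4.99, -6.13 to -4.17). The nearest genes to HoxA, Skap2 and Hibadh, were not called. Next to the 5′ end of HoxC, Calcoco1 had 3896 and 2025 counts (1.02, 0.94 to 1.10), the opposite direction to Hoxc13. Farther out on that side Atf7 had 446 and 1917 (-2.03, -2.18 to -1.88), the same direction as Hoxc13. Next to the 3′ end of HoxC, Smug1 had 512 and 579 (-0.10, -0.28 to 0.07). The genes beside HoxB, Calcoco2 and Skap1, had 0 and 8 and 3 and 0 counts.

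Hox proteins bind DNA with TALE homeobox proteins, and of 11 TALE genes 3 were higher and 3 were lower (median log2 ratio -0.07). Meis2 and Meis3, of the MEIS cofactors, were lower, at 151 and 1238 counts (-2.96, -3.21 to -2.71) and 94 and 284 counts (-1.51, -1.87 to -1.18). Pknox2, a relative of the MEIS genes, was higher at 825 and 93 counts (3.22, 2.91 to 3.55), and the cofactor Pbx3 at 376 and 194 (1.03, 0.78 to 1.29). Scaled by total counts, 1 TALE gene was higher, Pknox2, and 3 lower.

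Hox clusters are silenced by Polycomb and kept active by Trithorax proteins. Of 30 Polycomb genes 1 was higher and 3 lower (median -0.17), a smaller share of calls than the 37.2% over all genes. The chromobox genes Cbx7 and Cbx6 went opposite ways, Cbx7 with 792 and 295 counts (1.499, 1.31 to 1.70) and Cbx6 with 811 and 3664 (-2.10, -2.21 to -1.99). Phf19, a partner of Polycomb complex subunits, was lower at 91 and 523 counts (-2.44, -2.78 to -2.12), and Jarid2 had 277 and 196 (0.57, 0.31 to 0.85). The methyltransferase Ezh2 had 375 and 754 counts (-0.93, -1.11 to -0.75), short of 2-fold, and is named after its value was seen.

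Of 22 Trithorax, retinoid and other regulators past the filter 2 were higher and 5 lower (median -0.46), beside 21.2% higher and 15.9% lower over all genes. The demethylase Kdm6b was higher at 1875 and 892 counts (1.15, 1.03 to 1.26), and the methyltransferase Kmt2b had 1302 and 827 (0.73, 0.60 to 0.86). Gdf11, a ligand that sets posterior Hox domains in the embryo, was lower at 471 and 1837 counts (-1.89, -2.04 to -1.74), as was the replication regulator Gmnn at 195 and 533 (-1.37, -1.62 to -1.14). Aldh1a2, which makes retinoic acid and is also named after its value was seen, had 76 and 0 counts, at least 26.7-fold higher.

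Of 42 other genes of positional identity 25 were listed and 22 passed the filter, with 7 higher, 6 lower and a median of -0.05. Over all genes past the filter the shares higher and lower were 21.2% and 15.9%. Emx2, a homeobox gene of the limb girdles, had 329 and 0 counts, at least 115.6-fold higher, and Twist1, a mesodermal factor, 96 and 0, at least 33.7-fold. Shox2, needed for the upper limb segment, had 76 and 504 counts (-2.65, -3.02 to -2.30), and the zinc finger homeobox gene Zfhx4 had 122 and 883 (-2.77, -3.06 to -2.50). Lbx1, Tbx4, Pitx1 and Tbx5 were chosen after their values were seen. Lbx1, a gene of migrating limb muscle precursors, had 786 and 18 counts (5.49, 4.85 to 6.29). Tbx4, a hindlimb gene, had 0 and 11 counts and did not pass the filter, and the hindlimb gene Pitx1 and the forelimb gene Tbx5 were not listed.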

How the data were processed

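RNA of 1 Cipc scko and 1 Cipc flox/flox library was sequenced. Build GRCm38, StringTie 1.3.0, HISAT2 2.0.4 and CASAVA are listed in the submitters' processing notes. Which annotation and counting tool were used, and whether strand was, is not given in the sources used here. The authors deposited raw counts per gene and FPKM. Ensembl identifiers were matched to symbols with GENCODE vM21 (16116 of 16190).

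Counts were scaled to CPM with the TMM factors of edgeR 4.0.16 (R 4.3.3). Log2 ratios used a prior count of 0.5. Intervals are exact binomial (Clopper-Pearson) at 95% of a gene's split of counts between the libraries, computed with scipy 1.17.1 in Python 3.11.15. The floor for bounds was 3 counts per library. The calls were tested on simulated data that held counting error alone, so that test says nothing of variation between libraries of a group. No p-value was computed, since each group had 1 library. Medians are over genes past the filter.

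Named were every Hox gene but 1, every other row within a cluster, Cipc, and of each regulator list the 2 highest and 2 lowest log2 ratios among genes past the filter with at least 5 CPM in a library. Some cell type markers and flanking genes are named too, and other exceptions are marked where they stand. That Hox gene is counted in the totals, but its own values are not reported here. The members and lists were chosen with earlier results of these data known. Alternatives were scaling by total counts, upper quartile or DESeq2 1.42.0 size factors, other filters, fold limits, interval levels and prior counts, and the deposited FPKM with pseudocounts of 0.1 and 1.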

Additional observations from a re-analysis of the deposited data

How the results depend on the processing

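No paired analysis was possible because each group had 1 library, and for the same reason no replicate could be left out. Of 52 named genes, 416 alternative log2 ratios were computed. Those without a filter or with a filter of 5 CPM equal the main ratio by construction, since a filter alters no ratio. Of the 416, 50 moved farther than the nearer limit of the gene's main interval, and 3 changed sign. The 3 were all of Gm28308, which had 2 counts in each library and no call (0.06, against -0.05 scaled by total counts, -0.04 on FPKM with a pseudocount of 0.1 and -0.01 with 1). Cipc was -1.74 when scaled by total counts. The count of higher Hox genes, 10, was 6 with a filter of 5 CPM, 4 on FPKM with a pseudocount of 1, 6 with a fold limit of 4 and 6 without members whose exons overlap another gene. Under the other alternatives it was 8 to 12. The count of lower Hox genes, 4, was 2 with a filter of 5 CPM and 3 to 5 otherwise. The HoxB median of -4.62 rests on Hoxb4 alone. It was -0.91 on FPKM with a pseudocount of 1, and a filter of 5 CPM left no HoxB gene. The HoxC median of -0.42 reversed to 0.54 with a filter of 5 CPM, to 0.54 without overlapping members and to 0.26 relative to the median of its chromosome. The HoxD median of 6.52, which depends on the prior count because Cipc flox/flox had 0 counts, was 3.35 with a prior count of 5, 3.18 on FPKM with a pseudocount of 0.1 and 0.86 with a pseudocount of 1. A wider interval ended the calls of Hoxa2 and Hoxa6. The removal of overlapping members and the chromosome median were chosen after seeing the data. Beyond fewer genes passing or larger added constants, the cause was not tested. Scaling by total counts made 50.8% of all calls higher, against 57.1% with TMM. Genes with fewer than about 20 counts, among them Hoxb13 and Hoxd10, are limited by depth.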
